A study of Homo sapiens with 6 samples.

Results

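Transcript levels of 35 aminoacyl-tRNA synthetase genes were compared in NALM6 cells after verteporfin and after DMSO. The genes were taken by name: 19 encode cytosolic synthetases (AARS1, CARS1, EPRS1, FARSA, FARSB, GARS1, HARS1, IARS1, KARS1, LARS1, MARS1, NARS1, QARS1, RARS1, SARS1, TARS1, VARS1, WARS1 and YARS1) and 16 encode mitochondrial synthetases (AARS2, CARS2, EARS2, FARS2, HARS2, IARS2, LARS2, MARS2, NARS2, PARS2, RARS2, SARS2, TARS2, VARS2, WARS2 and YARS2). All 35 were found among the 13494 genes with a value, and all 35 passed the minimum mean of 0.5 FPKM, so that none had to be left out of the 12952 genes tested. NALM6 is a human cell line grown from a B-cell precursor leukemia. One group of 3 libraries came from cells kept for 48 h with verteporfin, a porphyrin known as an inhibitor of YAP binding to TEAD factors, at a concentration that the labels give as 0.6 mmol/L; the other group of 3 came from cells of the same line and medium given DMSO for 48 h. The study asked how Hippo pathway genes respond to the drug. Whether replicates were grown as separate cultures is not in the labels. The p-values therefore rest on library-to-library spread, part or all of which may be technical.

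Aminoacyl-tRNA synthetases join each amino acid to its transfer RNA and so set the supply of charged tRNA for protein synthesis. Human cells keep a cytosolic and a mitochondrial set, both encoded in the nucleus; the mitochondrial set serves translation of the respiratory chain subunits made inside the organelle. Lysine and glycine are among the exceptions, since KARS1 and GARS1 each give rise to the enzyme of both compartments. The mitochondrial list used here also holds no gene for glutamine, so QARS1 has no counterpart in it. Many genes of the cytosolic set are known targets of ATF4, the transcription factor made when the translation factor eIF2 is phosphorylated under amino acid shortage or other stress, and this factor is known to bind the C/EBP-ATF response element.

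The values were FPKM, a fragment number divided by transcript length and by the library's total, given by the authors per transcript and summed here per gene. Because FPKM are per length, levels of different genes could be set side by side. Read depth is unknown, since FPKM do not keep it. All 11 B-cell precursor markers looked up were listed, with summed levels of 1196 to 1922 FPKM in verteporfin libraries and 1530 to 1872 FPKM in DMSO libraries. Of 11 markers of other cell types only LYZ was listed, at 1.33 to 2.05 FPKM in verteporfin libraries and 2.01 to 2.56 FPKM in DMSO libraries. The share of transcripts at 0 was 8.16% ± 3.07 in verteporfin and 15.7% ± 2.58 in DMSO libraries (SD, n = 3 each), and the groups did not overlap. In bulk RNA of this kind, fewer cells with a transcript and less of it per cell cannot be told apart.

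By sum and by mean level, the cytosolic set lay above the mitochondrial set in every library, and the distance between the sets was wider in verteporfin. Single genes of the sets did not all keep this order. The summed level of the 19 cytosolic genes was 1213, 1782 and 1466 FPKM in verteporfin replicates 1, 2 and 3, against 1105, 1215 and 1147 FPKM in DMSO replicates 1, 2 and 3. The groups overlapped by a narrow margin, since verteporfin replicate 1 lay just under DMSO replicate 2. The summed level of the 16 mitochondrial genes was 258, 265 and 259 FPKM in verteporfin, against 333, 313 and 314 FPKM in DMSO. Here each verteporfin library was below each DMSO library, and the 3 verteporfin libraries were close to each other. The ratio of the cytosolic to the mitochondrial sum was 4.69, 6.74 and 5.67 in verteporfin, against 3.32, 3.88 and 3.65 in DMSO. The groups of this ratio did not overlap, with means of 5.70 ± 1.02 in verteporfin and 3.62 ± 0.283 in DMSO (SD, n = 3 each).

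On a log scale, which gives each gene the same say, the mean log2 of FPKM + 1 was 5.93 ± 0.37 in verteporfin and 5.60 ± 0.21 in DMSO for the cytosolic set, and the groups overlapped. For the mitochondrial set it was 3.85 ± 0.08 in verteporfin and 4.05 ± 0.05 in DMSO (SD, n = 3 each). The cytosolic minus the mitochondrial mean was 2.08 ± 0.29 in verteporfin and 1.54 ± 0.19 in DMSO, a difference of 0.54. Every verteporfin library was above every DMSO library, though verteporfin replicate 1 (1.79) and DMSO replicate 2 (1.71) were only a short distance apart. This order held for sums over every transcript of a gene. Over protein coding transcripts alone, verteporfin replicate 1 lay below DMSO replicate 2, so that the groups overlapped. No test is given for these set means, because the genes were chosen with earlier results of these data known.

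**Figure D1:**
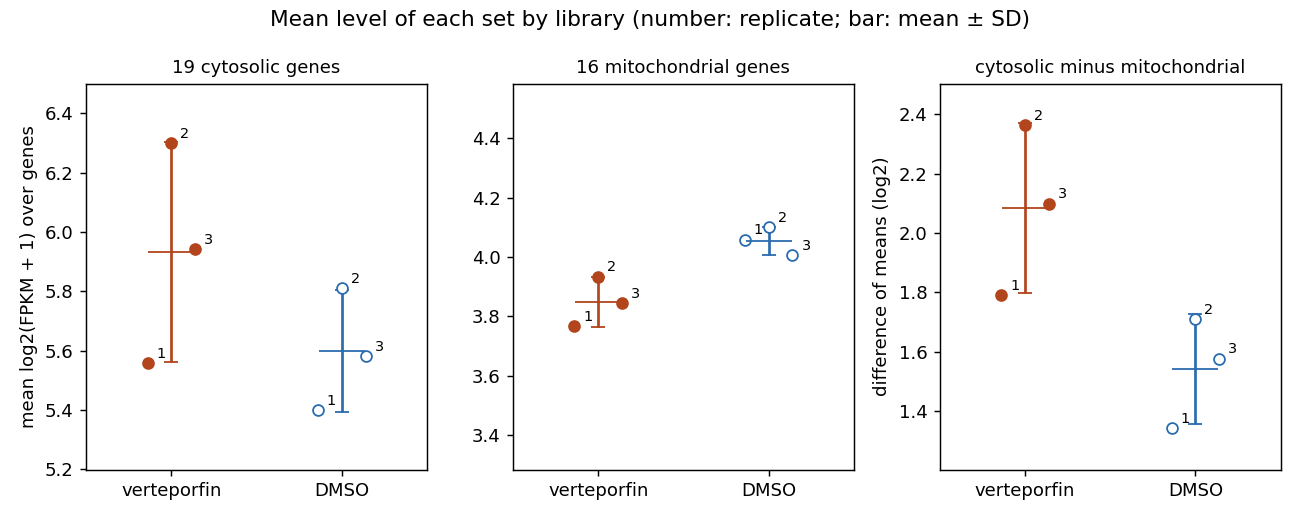
Mean log2(FPKM + 1) over the 19 cytosolic genes, over the 16 mitochondrial genes, and the difference of the 2 means, for each library; numbers mark replicates, bars the mean ± SD (n = 3), and all panels span the same range. The mitochondrial mean is lower in every verteporfin library, and the difference runs from 1.79 to 2.36 in verteporfin and from 1.34 to 1.71 in DMSO.

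Gene by gene, no synthetase passed the test. By limma on log2(FPKM + 1), with Benjamini-Hochberg adjustment over all genes tested, 0 of 19 cytosolic and 0 of 16 mitochondrial genes had an adjusted p under 0.05, where 0.0154% of all genes did. The lowest adjusted p was 0.332 in the cytosolic set (WARS1) and 0.488 in the mitochondrial set (EARS2). In data simulated with the spread of these libraries, this test called 7.1% of genes given a log2 change of 1. It called 62.2% of those given 2, so that a change near 1 would mostly go uncalled. At an unadjusted p under 0.05 limma gave 6 cytosolic genes with higher and 2 with lower values in verteporfin, and 0 mitochondrial genes with higher and 2 with lower values. Over all genes 8.84% passed this rule, 4.36% higher and 4.48% lower. The groups did not overlap for 5 cytosolic genes in the upward and 3 in the downward direction, and for 1 and 4 mitochondrial genes, against 14.2% of all genes, 6.49% upward and 7.74% downward. Of the cytosolic genes 14 of 19 had a log2 fold change (verteporfin minus DMSO) above 0, with a median of 0.27; of the mitochondrial genes 6 of 16 did, with a median of -0.16. Among all genes 50.7% were above 0 and the median was 0.01.

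The cytosolic median rested on single libraries. It was 0.06 without verteporfin replicate 2, 0.14 without DMSO replicate 1, 0.46 without DMSO replicate 2 and 0.62 without verteporfin replicate 1. The mitochondrial median was -0.28 without DMSO replicate 3, -0.24 without verteporfin replicate 2 and -0.10 without DMSO replicate 1. The libraries numbered 2 had the highest level within both groups for 14 of 19 cytosolic genes, for 5 of 16 mitochondrial genes and for 28.4% of all genes tested. Without both libraries numbered 2, the difference between the set means of log2 levels was 0.49, against 0.54 with all libraries.

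**Figure D2:**
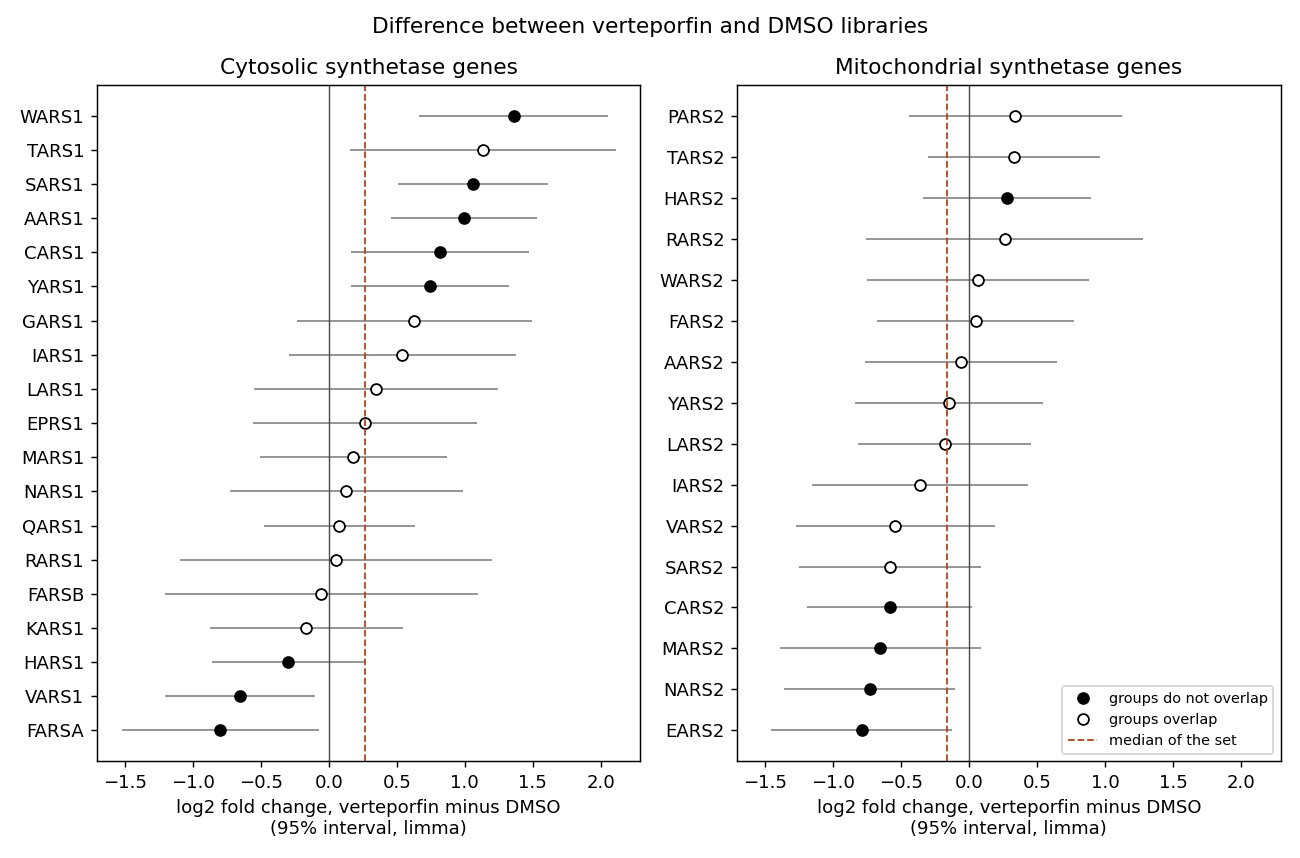
Log2 fold change of each gene, verteporfin minus DMSO, with its 95% interval from limma; filled points are genes whose groups do not overlap, and the dashed line is the median of the set (0.27 cytosolic, -0.16 mitochondrial). Genes run from WARS1 at 1.36 to FARSA at -0.80 in the cytosolic set and from PARS2 at 0.34 to EARS2 at -0.79 in the mitochondrial set.

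The largest difference was that of WARS1 (ENSG00000140105), the cytosolic enzyme for tryptophan, also known as a gene induced by interferon. Its level was 57.6, 101 and 70.6 FPKM in verteporfin, against 22.1, 37.6 and 27.6 FPKM in DMSO. The lowest verteporfin library was well above the highest DMSO library. The log2 fold change was 1.36 with a standard error of 0.31 and a 95% interval of 0.66 to 2.06 (limma adjusted p = 0.332).

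SARS1 (ENSG00000031698), the enzyme for serine, was at 150, 190 and 179 FPKM in verteporfin, against 81.0, 90.0 and 75.8 FPKM in DMSO. The groups were far apart relative to the spread within them, and the log2 fold change was 1.06 (95% interval 0.51 to 1.61, limma adjusted p = 0.369). AARS1 (ENSG00000090861), the enzyme for alanine, was at 113, 116 and 116 FPKM in verteporfin, against 57.0, 63.6 and 51.8 FPKM in DMSO. Its 3 verteporfin libraries were nearly equal, and its log2 fold change was 1.00 (95% interval 0.46 to 1.54, limma adjusted p = 0.369). In these 3 genes the interval excluded 0, and leaving out any single library kept the log2 fold change between 1.14 and 1.56 for WARS1, 0.99 and 1.16 for SARS1, and 0.92 and 1.07 for AARS1.

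TARS1 (ENSG00000113407), the enzyme for threonine, was at 22.8, 72.4 and 43.3 FPKM in verteporfin, against 11.2, 25.1 and 22.1 FPKM in DMSO. Verteporfin replicate 1 lay inside the DMSO range, and the log2 fold change of 1.13 (95% interval 0.16 to 2.11, limma adjusted p = 0.496) was 0.74 without verteporfin replicate 2. CARS1 (ENSG00000110619), the enzyme for cysteine, was at 24.6, 40.0 and 35.9 FPKM in verteporfin, against 19.3, 20.3 and 15.3 FPKM in DMSO, with a log2 fold change of 0.82 (limma adjusted p = 0.464). YARS1 (ENSG00000134684), the enzyme for tyrosine, was at 205, 139 and 197 FPKM in verteporfin, against 110, 98.8 and 109 FPKM in DMSO, with a log2 fold change of 0.74 (limma adjusted p = 0.458). CARS1 and YARS1 had no overlap between groups, but in both the verteporfin libraries were spread over a wide range.

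GARS1 (ENSG00000106105), the glycine enzyme of both compartments, was at 92.2, 305 and 167 FPKM in verteporfin, against 107, 115 and 103 FPKM in DMSO. Verteporfin replicate 1 lay below all of DMSO and replicate 2 far above it, and the log2 fold change of 0.63, with an interval from -0.24 to 1.49, was 0.20 without verteporfin replicate 2. KARS1 (ENSG00000065427), the lysine enzyme of both compartments, was at 47.3, 80.5 and 49.3 FPKM in verteporfin, against 45.9, 77.8 and 74.8 FPKM in DMSO (log2 fold change -0.17, interval -0.88 to 0.54). The groups of KARS1 covered nearly the same range.

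In 3 cytosolic genes each verteporfin library was below each DMSO library. FARSA (ENSG00000179115), which encodes the catalytic alpha subunit of the phenylalanine enzyme, was at 122, 68.2 and 118 FPKM in verteporfin, against 205, 124 and 207 FPKM in DMSO. The groups nearly touched, at verteporfin replicate 1 and DMSO replicate 2, and the log2 fold change was -0.80 (95% interval -1.52 to -0.07, limma adjusted p = 0.522). FARSB, the beta subunit of the same enzyme, was at 5.92, 33.0 and 12.9 FPKM in verteporfin, against 10.8, 20.3 and 13.6 FPKM in DMSO (log2 fold change -0.05, interval -1.21 to 1.10). VARS1 (ENSG00000204394), the enzyme for valine, was at 81.7, 75.6 and 81.2 FPKM in verteporfin, against 145, 109 and 124 FPKM in DMSO. Its verteporfin libraries were close together and clearly below DMSO, with a log2 fold change of -0.65 (95% interval -1.21 to -0.10, limma adjusted p = 0.490). HARS1 (ENSG00000170445), the enzyme for histidine, was at 43.0, 38.0 and 33.3 FPKM in verteporfin, against 49.7, 47.1 and 44.0 FPKM in DMSO, with a log2 fold change of -0.30 (limma adjusted p = 0.770).

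The other cytosolic genes overlapped between groups. Those with log2 fold changes above 0 were IARS1 (0.54, isoleucine), LARS1 (0.35, leucine), EPRS1 (0.27, the fused enzyme for glutamate and proline), MARS1 (0.18, methionine), NARS1 (0.13, asparagine), QARS1 (0.08, glutamine) and RARS1 (0.05, arginine). All 7 intervals included 0. IARS1, LARS1 and EPRS1 were highest in verteporfin replicate 2, at 162, 51.3 and 74.5 FPKM. RARS1 was spread widely within both groups, at 16.0, 37.2 and 18.3 FPKM in verteporfin, against 8.50, 36.4 and 30.4 FPKM in DMSO.

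The subunits of the multi-synthetase complex, the cytosolic particle that holds EPRS1, IARS1, KARS1, LARS1, MARS1, QARS1 and RARS1, had log2 fold changes from -0.17 to 0.54, with a median of 0.18. None of these 7 had groups without overlap, where 14.2% of all genes had such groups. The complex holds too few genes for its count to be set apart from that share. The 12 cytosolic genes outside it ran from -0.80 to 1.36, with a median of 0.69, and included all 8 whose groups did not overlap. Split by catalytic fold, the 10 cytosolic genes of class I had a median log2 fold change of 0.31 and the 9 of class II one of 0.13, so that both classes held genes at either end; EPRS1, which carries a domain of each class, was counted in class I.

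**Figure D3:**
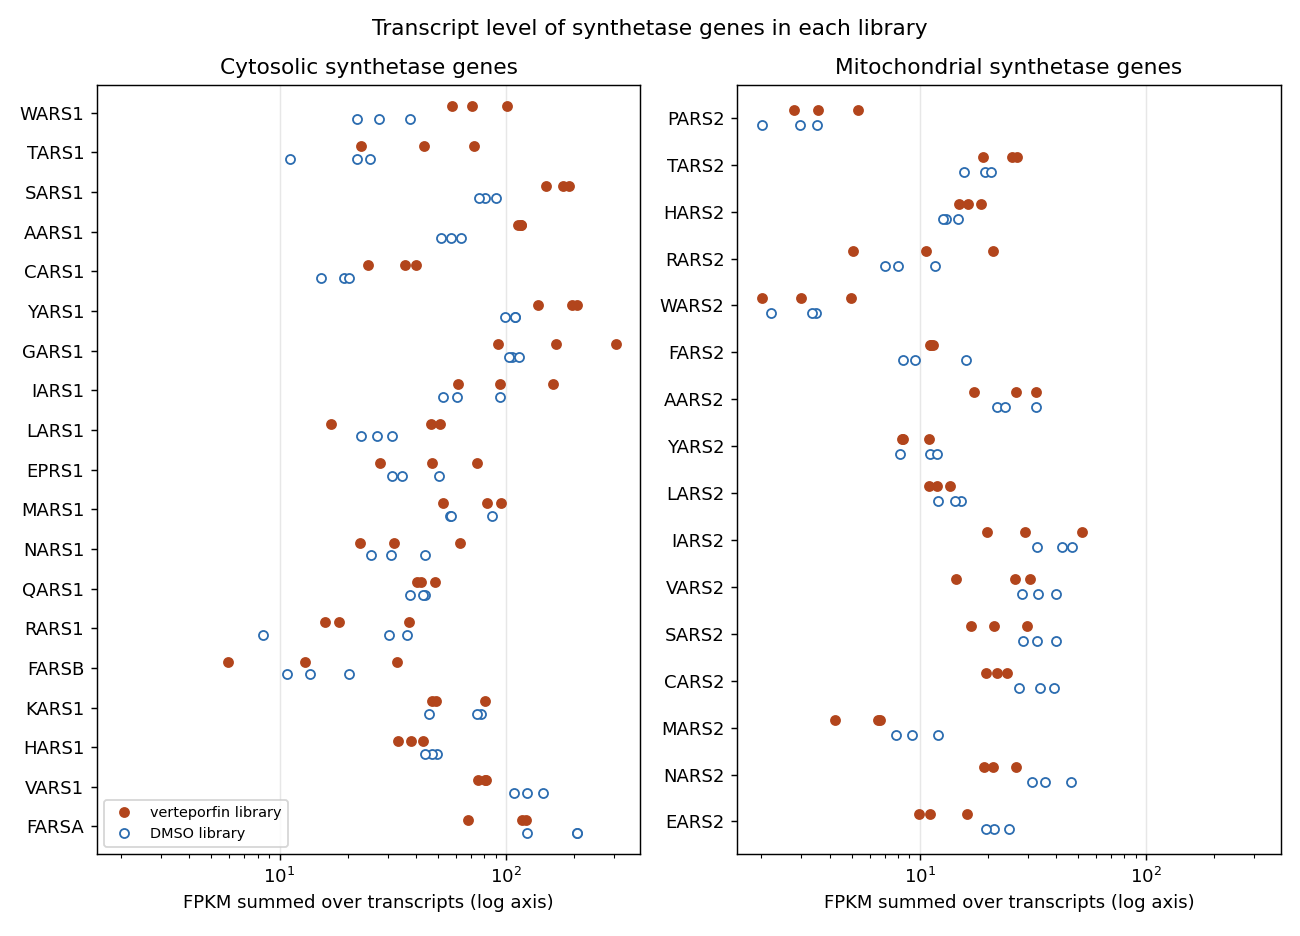
FPKM of each gene in each library on a log axis, with verteporfin libraries (filled) above DMSO libraries (open) and genes ordered by log2 fold change. WARS1, SARS1 and AARS1 separate clearly, GARS1 spreads from 92.2 to 305 FPKM in verteporfin, and the mitochondrial genes lie mostly below 50 FPKM.

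Among mitochondrial enzymes the genes furthest from 0 had lower values in verteporfin. EARS2 (ENSG00000103356), the enzyme for glutamate, was at 9.93, 16.2 and 11.1 FPKM in verteporfin, against 24.7, 21.2 and 19.6 FPKM in DMSO. No library overlapped, and the log2 fold change was -0.79 (95% interval -1.46 to -0.12, limma adjusted p = 0.488). NARS2 (ENSG00000137513), the enzyme for asparagine, was at 21.0, 19.2 and 26.6 FPKM in verteporfin, against 35.6, 31.2 and 46.5 FPKM in DMSO, with a log2 fold change of -0.73 (95% interval -1.36 to -0.10, limma adjusted p = 0.496). These were the mitochondrial genes whose interval excluded 0.

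MARS2 (ENSG00000247626), the enzyme for methionine, was at 4.24, 6.57 and 6.68 FPKM in verteporfin, against 12.0, 9.27 and 7.85 FPKM in DMSO (log2 fold change -0.65, interval -1.39 to 0.09). CARS2 (ENSG00000134905), the enzyme for cysteine, was at 24.2, 19.5 and 22.0 FPKM in verteporfin, against 39.1, 27.5 and 34.1 FPKM in DMSO (log2 fold change -0.58, interval -1.19 to 0.02). Both genes were lower in each verteporfin library than in any DMSO library, with intervals that reached 0. SARS2 (ENSG00000104835), the enzyme for serine, was at 29.8, 16.9 and 21.2 FPKM in verteporfin, against 39.9, 28.6 and 32.9 FPKM in DMSO (log2 fold change -0.58). VARS2 (ENSG00000137411), the enzyme for valine, was at 30.5, 14.5 and 26.2 FPKM in verteporfin, against 40.0, 33.2 and 28.4 FPKM in DMSO (log2 fold change -0.54). In SARS2 and VARS2 verteporfin replicate 1 lay inside the DMSO range.

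HARS2 (ENSG00000112855), the enzyme for histidine, was the 1 mitochondrial gene with higher values in each verteporfin library, at 18.6, 16.3 and 15.0 FPKM against 13.0, 12.7 and 14.8 FPKM in DMSO. The lowest verteporfin and the highest DMSO library nearly met, and the log2 fold change was 0.28 (95% interval -0.34 to 0.90, limma adjusted p = 0.812). WARS2 (ENSG00000116874), the enzyme for tryptophan, was at 2.01, 4.97 and 2.98 FPKM in verteporfin, against 2.21, 3.48 and 3.35 FPKM in DMSO (log2 fold change 0.06). AARS2 (ENSG00000124608), the enzyme for alanine, was at 32.6, 17.3 and 26.6 FPKM in verteporfin, against 32.7, 21.9 and 23.9 FPKM in DMSO (log2 fold change -0.06). Neither WARS2 nor AARS2 separated the groups in either direction.

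The remaining mitochondrial genes overlapped between groups and had intervals that included 0. IARS2 was at -0.36 on the log2 scale, LARS2 at -0.18, YARS2 at -0.15, FARS2 at 0.05, RARS2 at 0.26, TARS2 at 0.33 and PARS2, the proline enzyme, at 0.34. The 9 mitochondrial genes of class I had a median log2 fold change of -0.36, with 2 above 0, and the 7 of class II one of 0.05, with 4 above 0.

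By mean level, the highest gene sums over all transcripts in verteporfin were those of GARS1 (188 ± 108 FPKM), YARS1 (180 ± 36.1 FPKM), SARS1 (173 ± 20.5 FPKM) and AARS1 (115 ± 1.68 FPKM). In DMSO they were FARSA (179 ± 47.1 FPKM), VARS1 (126 ± 18.3 FPKM), GARS1 (108 ± 5.79 FPKM) and YARS1 (106 ± 6.12 FPKM; SD, n = 3 each). The mean ± SD ranges of neighbours in these orders overlapped, apart from SARS1 and AARS1 in verteporfin. Protein coding transcripts alone gave another order of these genes. In verteporfin their means were 139 FPKM for SARS1, 104 for AARS1, 55.7 for GARS1 and 43.6 for YARS1. In DMSO they were 109 FPKM for VARS1, 99.0 for FARSA, 53.1 for YARS1 and 31.1 for GARS1. At the low end stood WARS2 and PARS2, at 3.32 ± 1.51 and 3.90 ± 1.32 FPKM in verteporfin and 3.01 ± 0.700 and 2.83 ± 0.754 FPKM in DMSO. The mitochondrial gene with the highest mean was IARS2, at 33.7 ± 16.5 FPKM in verteporfin and 40.8 ± 7.16 FPKM in DMSO.

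Each cytosolic gene was then set against the mitochondrial gene for the same amino acid, as the difference of log2(FPKM + 1) within a library, which a common scaling of a library nearly cancels. There were 17 such pairs, with EPRS1 set against both EARS2 and PARS2, and FARSA and FARSB each against FARS2; these pairs share genes. Of the 17, 11 differences were higher in verteporfin and 6 lower, and the shift ran from -0.85 (FARSA/FARS2) to 1.64 (SARS1/SARS2). In 13 pairs the cytosolic gene had the higher level in all 6 libraries.

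For serine the difference was 2.30, 3.41 and 3.01 in verteporfin, against 1.00, 1.62 and 1.18 in DMSO. For tryptophan it was 4.28, 4.10 and 4.17 in verteporfin, against 2.85, 3.11 and 2.71 in DMSO, a shift of 1.29. For alanine it was 1.77, 2.68 and 2.09 in verteporfin, against 0.79, 1.49 and 1.09 in DMSO, a shift of 1.06. None of the 3 pairs overlapped between groups, and the 2-sided exact permutation p was 0.1 for each, the smallest that 3 libraries against 3 allow. The tryptophan pair had the tightest verteporfin values of the 3, with an SD of 0.09. All pairs use sums over every transcript of a gene. SARS2 had a log2 fold change of -0.58 on such sums and of -0.15 over protein coding transcripts alone.

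For cysteine the order of these sums was opposite in all libraries of the groups. CARS1 was above CARS2 in each verteporfin library, with differences of 0.02, 1.00 and 0.68, and below it in each DMSO library, with differences of -0.98, -0.42 and -1.11 (shift 1.40). Over protein coding transcripts alone the order did not hold, since CARS1 (11.1 FPKM) was above CARS2 (8.33 FPKM) in DMSO replicate 2 too. For isoleucine the difference was 1.59, 1.62 and 1.67 in verteporfin, against 0.66, 0.98 and 0.50 in DMSO, although IARS1 itself overlapped between the groups. Histidine went the other way, with 1.17, 1.17 and 1.10 in verteporfin, against 1.86, 1.81 and 1.51 in DMSO. These 3 pairs, picked after their values were seen, also had an exact permutation p of 0.1, as had methionine (shift 0.83) and EPRS1 against EARS2 (1.06). No pair could pass 0.05 in this permutation test.

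**Figure D4:**
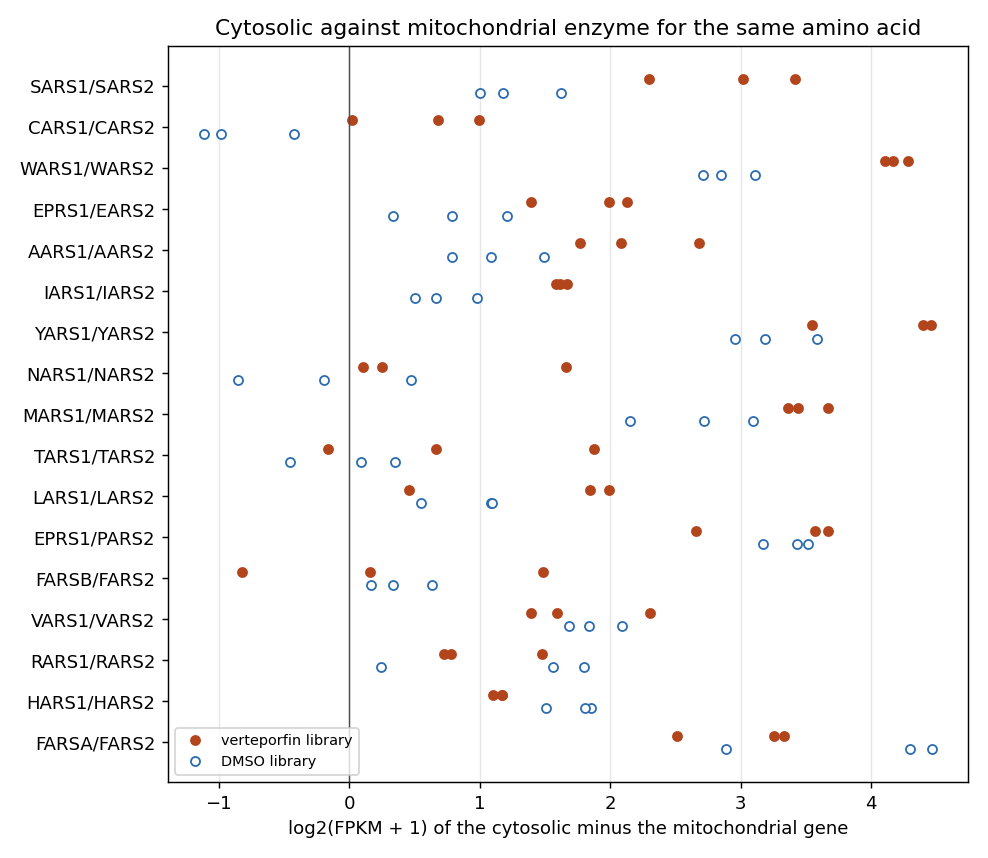
Log2(FPKM + 1) of the cytosolic minus the mitochondrial gene for 17 pairs, with verteporfin libraries (filled) above DMSO libraries (open) and pairs ordered by shift, SARS1/SARS2 (1.64) at the top and FARSA/FARS2 (-0.85) at the bottom. For CARS1/CARS2 the verteporfin points lie right of 0 and the DMSO points left of it.

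HARS1 and HARS2 are neighbours on chromosome 5 and are transcribed away from each other. A stretch of 84 bases separates their RefSeq starts (GRCh38.p14, chr5:140691371-140691454, given on the strand of HARS2), and it is shown because genes whose values lay on opposite sides of 0 share it.
HARS1 to HARS2 interval: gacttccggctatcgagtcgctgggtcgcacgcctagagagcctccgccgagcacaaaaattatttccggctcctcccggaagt
HARS1 was lower and HARS2 higher in each verteporfin library than in any DMSO library, with intervals that included 0 for both. In GENCODE 29 the genes overlap by 437 bases on opposite strands, and the strand setting behind the FPKM is not given in the sources used here.

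Promoter sequence was searched for the C/EBP-ATF response element, taken as TGATGNAA or its reverse complement TTNCATCA, in RefSeq windows from 250 bases before to 50 after each gene start. A window was at hand for 16 of 19 cytosolic and 14 of 16 mitochondrial genes. The letters occurred in 7 cytosolic genes and in 1 mitochondrial gene (YARS2), where 2.58% of the 9418 tested genes with a window and 3.62% of all 35116 windows held them. These 30-base stretches are shown with the match in capitals, 5′ to 3′ on the strand of the gene, since the cytosolic ones share the core and most of them lie close to the start.
AARS1 (chr16:70289675-70289704, minus strand): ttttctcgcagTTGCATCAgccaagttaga
CARS1 (chr11:3057407-3057436, minus strand): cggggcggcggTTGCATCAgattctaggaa
GARS1 (chr7:30594834-30594863, plus strand): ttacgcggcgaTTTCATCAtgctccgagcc
IARS1 (chr9:92293692-92293721, minus strand): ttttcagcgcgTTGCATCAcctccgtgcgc
MARS1 (chr12:57488053-57488082, plus strand): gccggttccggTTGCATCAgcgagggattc
NARS1 (chr18:57621804-57621833, minus strand): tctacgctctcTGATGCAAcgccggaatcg
TARS1 (chr5:33440956-33440985, plus strand): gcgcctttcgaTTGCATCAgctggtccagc
YARS2 (chr12:32756076-32756105, minus strand): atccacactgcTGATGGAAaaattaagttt

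All coordinates of these stretches are GRCh38.p14, from RefSeq. In 6 of the 7 cytosolic genes the match was TTGCATCA or its complement, and in GARS1 it was TTTCATCA. The match began 187 bases before the start in AARS1, 33 in GARS1, 13 in IARS1, 4 in MARS1 and 2 in CARS1, and 2 and 14 bases after the start in TARS1 and NARS1; in YARS2 it began 197 bases before. Log2 fold changes of the 7 cytosolic genes were all above 0, from 0.13 (NARS1) and 0.18 (MARS1) to 1.00 (AARS1) and 1.13 (TARS1), but WARS1 (1.36) and SARS1 (1.06), with windows and no match, were as high. EPRS1 (0.27), QARS1 (0.08) and RARS1 (0.05) also had windows, no match and values above 0. FARSA, HARS1, KARS1 and FARSB, the cytosolic genes with a window whose values were below 0, had no match. Genes without a match thus lay on both sides of 0. LARS1, VARS1 and YARS1 had no window in the table. A match is a description of the letters and says nothing of whether a factor was bound.

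Splitting the sums by transcript showed where the higher values lay. The 35 genes had 287 transcripts listed, 121 of them annotated as protein coding and 166 as retained intron or other types, and 0 of the 264 transcripts tested passed limma over single transcripts, where 0.0308% of all transcripts did; at an unadjusted p under 0.05 it gave 19 with higher and 5 with lower values, where 3.58% of all transcripts were higher and 2.97% lower. A transcript is listed where 1 group reaches a mean of 0.5 FPKM, so one that is low in the other group is listed only through the group where it is high. Summed over protein coding transcripts alone, the median log2 fold change was 0.12 in the cytosolic set, with 10 of 19 above 0, and -0.15 in the mitochondrial set, with 6 of 16 above 0. Over the other transcripts it was 0.52 in the 18 cytosolic genes that had any, with 15 above 0, and -0.11 in the 12 such mitochondrial genes, with 5 above 0. In SARS2 coding transcripts made up 36.9% of the sum in verteporfin and 27.9% in DMSO. Of the genes whose sums did not overlap, FARSA, HARS1, YARS1, CARS2, EARS2 and HARS2 overlapped in coding transcripts. AARS1, CARS1, SARS1, VARS1, WARS1, MARS2 and NARS2 stayed apart. In all, coding sums did not overlap for 5 cytosolic genes upward and 1 downward, and for 0 and 2 mitochondrial genes. Of the 10527 genes tested on coding sums 6.26% lay higher and 7.87% lower without overlap. The median log2 fold change of those 10527 genes was 0.01. For the other transcripts no value over all genes is given here.

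WARS1, SARS1 and AARS1 had higher values in coding transcripts. Coding WARS1 was at 50.5, 77.5 and 58.6 FPKM in verteporfin, against 15.7, 29.3 and 17.1 FPKM in DMSO, a log2 fold change of 1.57 (limma adjusted p = 0.240 over coding sums). Coding SARS1 was at 133, 135 and 150 FPKM in verteporfin, against 68.1, 67.1 and 60.4 FPKM in DMSO (1.09). Coding AARS1 was at 105, 106 and 100 FPKM in verteporfin, against 49.3, 58.4 and 44.4 FPKM in DMSO (1.03). In SARS1 a single transcript, ENST00000234677, made up 78.9% of the gene in verteporfin and 76.2% in DMSO, and in AARS1 ENST00000261772 made up 89.4% and 87.8%. TARS1 separated the groups in coding transcripts, with 19.9, 56.3 and 37.3 FPKM in verteporfin, against 8.91, 18.8 and 15.5 FPKM in DMSO.

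WARS1 was spread over 23 transcripts. The coding transcript ENST00000344102 was at 5.41, 6.74 and 6.20 FPKM in verteporfin and listed at 0 in all 3 DMSO libraries. ENST00000556504 and ENST00000555031, also coding, were likewise listed at 0 in every DMSO library, with 9.79, 4.88 and 2.87 FPKM and 2.01, 3.37 and 4.70 FPKM in verteporfin. All 3 are listed through their verteporfin values alone, so these levels are a description and no test of them is given. The coding transcript ENST00000355338 was at 5.82, 9.89 and 7.95 FPKM in verteporfin, against 4.70, 9.45 and 7.37 FPKM in DMSO. Its share of the gene was 10.3% in verteporfin and 24.7% in DMSO. How reads were shared between such overlapping transcripts is set by the authors' quantification, so single transcripts are less certain than gene sums.

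In YARS1 and CARS1 coding and other transcripts differed. Coding YARS1 was at 34.6, 68.0 and 28.2 FPKM in verteporfin, against 47.1, 63.5 and 48.6 FPKM in DMSO, a log2 fold change of -0.37. Its other transcripts were at 171, 71.0 and 168 FPKM in verteporfin, against 62.5, 35.3 and 60.5 FPKM in DMSO (1.29). The higher total of YARS1 thus lay in transcripts not annotated as coding, above all ENST00000478828, at 103, 9.40 and 82.6 FPKM in verteporfin against 20.6, 5.58 and 4.03 FPKM in DMSO. Coding CARS1 was at 14.5, 14.5 and 15.2 FPKM in verteporfin, against 12.7, 11.1 and 11.3 FPKM in DMSO (0.31), and its other transcripts at 10.1, 25.5 and 20.7 FPKM in verteporfin, against 6.69, 9.27 and 3.99 FPKM in DMSO (1.34).

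Besides YARS1, coding sums had the sign opposite to the total in GARS1 (-0.06), QARS1 (-0.33) and RARS1 (-0.52). In GARS1 coding transcripts made up 29.6% of the sum in verteporfin and 28.8% in DMSO, the rest being annotated as retained introns. The coding transcript of GARS1 was at 5.47, 135 and 26.5 FPKM in verteporfin, against 18.3, 46.3 and 28.8 FPKM in DMSO, with a verteporfin spread that covers the whole DMSO range. For KARS1, whose longer product is the one known to carry the mitochondrial presequence, ENST00000302445 (597 residues) held 58.4% of the gene in verteporfin and 65.7% in DMSO. ENST00000319410 (625 residues) held 18.5% in verteporfin and 16.7% in DMSO, with log2 fold changes of -0.33 and -0.07 for the shorter and the longer form, neither of which passed.

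**Figure D5:**
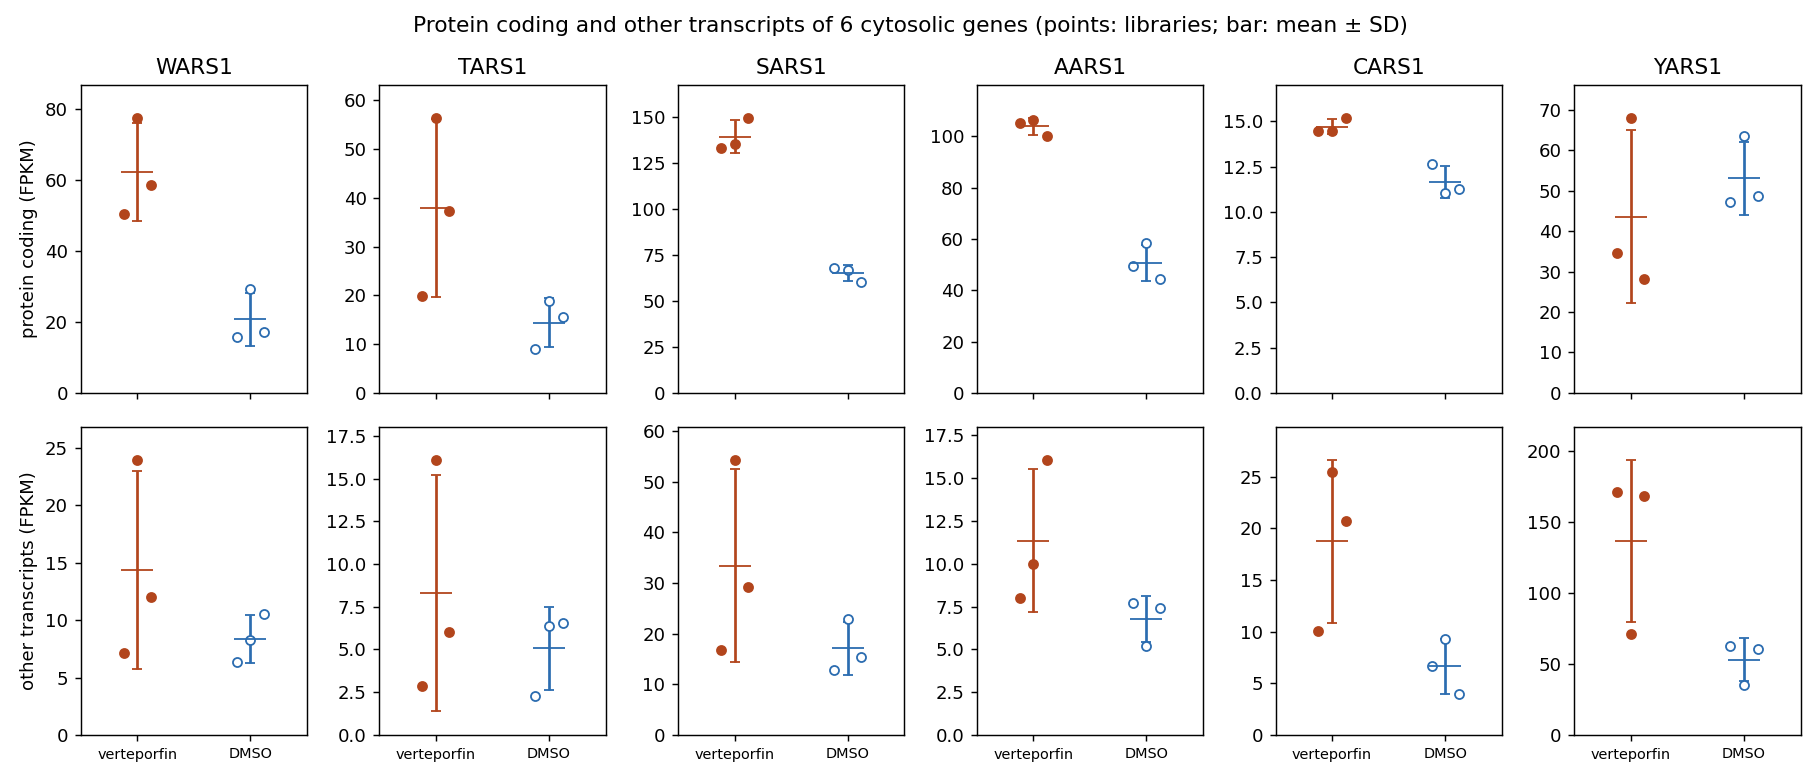
FPKM of protein coding transcripts (upper row) and other transcripts (lower row) of 6 cytosolic genes in verteporfin and DMSO libraries; points are libraries, bars the mean ± SD (n = 3), and axes start at 0. Coding sums of WARS1, TARS1, SARS1 and AARS1 lie higher in every verteporfin library, while for YARS1 only the other transcripts do.

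In GENCODE 29, 12 of the 35 genes overlap another tested gene on the opposite strand. MARS1 overlaps DDIT3, the ATF4-induced gene for CHOP, by 982 bases; DDIT3 rose to 42.2 FPKM in verteporfin, against 6.77 FPKM in DMSO (log2 fold change 2.45, limma adjusted p = 0.0441), a call that did not hold with a pseudocount of 0.1 or without verteporfin replicate 3. YARS1 overlaps S100PBP by 1387 bases and WARS1 overlaps WDR25 by 388 bases, and neither neighbour passed (log2 fold changes 0.40 and 0.26). The libraries were made with a stranded kit per the labels; the part of overlapping reads in these values was not tested.

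Genes that work beside the synthetases were looked up in fixed lists. Of 16 partners and related factors 15 were tested and 0 passed (lowest limma adjusted p = 0.596), with 0 at an unadjusted p under 0.05 and 1 lower with library weights; 7 were above 0 and the median was -0.04. The scaffold genes of the multi-synthetase complex, AIMP1, AIMP2 and EEF1E1, had log2 fold changes of 0.27, -0.19 and -0.58. MTFMT, which formylates the mitochondrial initiator methionyl-tRNA, was at -0.65. All 15 overlapped between groups, where 14.2% of all genes did not. Of all genes 8.84% had an unadjusted p under 0.05, and 3.0% passed lower with library weights.

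Of 12 genes for maturation of mitochondrial tRNA 10 had a log2 fold change below 0, with a median of -0.48, and 0 passed (lowest limma adjusted p = 0.503; 3 lower at an unadjusted p under 0.05, 0 with library weights). ELAC2, which trims the 3′ end of precursor tRNA, was at 43.4, 46.7 and 55.5 FPKM in verteporfin, against 66.8, 73.1 and 86.8 FPKM in DMSO. HSD17B10, a subunit of mitochondrial RNase P, was at 89.8, 64.9 and 70.8 FPKM in verteporfin, against 108, 99.8 and 103 FPKM in DMSO. These were the genes of the list whose groups did not overlap. Of all genes 7.74% lay lower without overlap, 4.48% were lower at an unadjusted p under 0.05 and 3.0% passed lower with library weights. Of 9 mitochondrial translation factors 7 were above 0, with a median of 0.12 and 0 past the test (lowest limma adjusted p = 0.503; 1 higher at an unadjusted p under 0.05 and 1 with library weights). Of all genes 4.36% were higher at an unadjusted p under 0.05 and 5.35% passed higher with library weights. MTIF3, a mitochondrial initiation factor, had the largest value (0.87) and TUFM, the mitochondrial elongation factor Tu, was at -0.41.

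ATF4 targets other than synthetases stood higher. Of 35 on the list 33 were tested, 27 had a log2 fold change above 0, 2 rose (DDIT3 and DDIT4) and 0 fell, with a median of 0.67. At an unadjusted p under 0.05 limma gave 15 higher and 1 lower, where 4.36% of all genes were higher and 4.48% lower. With library weights 13 higher and 1 lower passed, where 5.35% of all genes passed higher and 3.0% lower. The groups did not overlap for 16 with higher values and for 3 with lower values, against 6.49% and 7.74% of all genes. Those 3 were the amino acid transporter genes SLC7A5 and SLC1A5 and the proline synthesis gene ALDH18A1. The call of DDIT4, like that of DDIT3, did not hold with a pseudocount of 0.1 or when verteporfin replicate 3, or replicate 1 or 2 of DMSO, was left out, where 0 genes of the whole table passed limma. Earlier results of these data already showed this direction, so the list is no independent evidence. XPOT, which exports tRNA from the nucleus, was at 20.8, 93.7 and 39.4 FPKM in verteporfin, against 23.5, 34.5 and 29.2 FPKM in DMSO (log2 fold change 0.55, limma adjusted p = 0.769), and like GARS1 it was high in verteporfin replicate 2 and below DMSO in verteporfin replicate 1. ASNS, asparagine synthetase, had a log2 fold change of 1.74 and EIF4EBP1, which encodes a brake on translation initiation, one of 0.36. Neither passed, with adjusted p of 0.280 and 0.733.

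When limma was given a weight per library, estimated from the data, 8.35% of all genes passed, 5.35% higher and 3.0% lower. In that fit 6 cytosolic genes (WARS1, SARS1, TARS1, AARS1, CARS1 and YARS1) passed with higher and 1 (VARS1) with lower values, and 1 mitochondrial gene (EARS2) passed with lower values. Adjusted p ran from 0.00618 (SARS1) to 0.0465 (VARS1) among them. Verteporfin replicate 3 counted most in it, weighted 3.88, while replicates 1 and 2 were weighted 0.416 and 0.363. With the replicate number as a term, 2 cytosolic genes (WARS1 and SARS1) and 0 mitochondrial genes passed, where 0.649% of all genes did. The labels do not say whether libraries of equal number belong together, so this fit was kept as an alternative only.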

How the data were processed

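RNA of 6 NALM6 libraries was compared, 3 with verteporfin and 3 with DMSO. The authors deposited FPKM per Ensembl transcript; no listed transcript averages under 0.5 FPKM in both groups. The submitters' processing notes name HISAT2 2.1.0, StringTie 1.3.3, STAR, edgeR, FastQC, cutadapt and the build hg18, without roles. Another 4765 entries hold whole numbers under repeated identifiers and were left out of the tests. Depth is unknown.

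GENCODE 29 matched 61975 of 62250 transcripts, and FPKM were summed per gene. Genes averaging 0.5 FPKM or more over all libraries were tested on log2(FPKM + 1) with limma 3.58.1 (R 4.3.3, variance trend, 2-sided, Benjamini-Hochberg over 12952 genes, threshold 0.05), with treatment as the 1 term. A fold change on this scale understates the change of low genes. The scripts were tested on simulated data. Python 3.11.15, scipy 1.17.1 and matplotlib 3.10.9 did the rest.

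The genes and lists were chosen with earlier results of these data known. Values in every library are given for the 8 cytosolic and 6 mitochondrial genes furthest from 0, those whose groups did not overlap, KARS1, GARS1 and the WARS, SARS and AARS pairs. Other minimums, pseudocounts, scalings, variance models, library subsets and transcript choices were tried as alternatives.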

Additional observations from a re-analysis of the deposited data

Results flagged for a closer look

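The whole-number entries left out of the tests include 23 under transcript identifiers of 13 cytosolic synthetase genes. Their unit is not stated. Summed, they came to 48, 69 and 41 in verteporfin replicates 1, 2 and 3, against 17, 10 and 30 in DMSO replicates 1, 2 and 3, with a mean of 52.7 in verteporfin. They are given because every verteporfin library lay above every DMSO library in data that no comparison used. All 4765 such entries together summed to 5883, 9562 and 5130 in verteporfin, against 3273, 2719 and 2071 in DMSO, so the same holds for the entries as a whole. AARS1 had 8, 10 and 12 in verteporfin, against 0, 2 and 2 in DMSO, and RARS1 had 4, 21 and 6 in verteporfin, against 0, 2 and 0 in DMSO. In other genes with large entries the groups overlapped: FARSA had 19, 12 and 4 in verteporfin, against 2, 0 and 16 in DMSO, and YARS1 had 8, 6 and 3 in verteporfin, against 10, 0 and 5 in DMSO. The 8 entries of mitochondrial synthetase genes summed to 2, 9 and 7 in verteporfin, against 7, 3 and 0 in DMSO.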

How the results depend on the processing

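Of 663 values of single synthetase genes under 19 alternatives, 622 kept their direction and side of the threshold, 10 kept the direction and passed, and 31 turned sign; 21 of the 35 genes never turned. The count of 2 genes called over all genes became 0 with a pseudocount of 0.1 or 0.01, equal medians, rescaling without the 3 most abundant transcripts, no trend, without both libraries numbered 2 and with protein coding transcripts only, 1 with the most abundant transcript of each gene, and 0 to 12 leaving out single libraries (11 without verteporfin replicate 1, 12 without verteporfin replicate 2); those fits gave 571 to 1910 genes at an unadjusted p under 0.05. Library weights gave 1081 genes, 7 of them cytosolic and 1 mitochondrial synthetases. The replicate number as a block gave 84 genes and 2 cytosolic synthetases, WARS1 (limma adjusted p = 0.0269) and SARS1 (0.0495). Whether equal numbers pair the libraries is not in the labels. Deviations of equal numbers correlated at 0.389, 0.509 and 0.0985. For verteporfin replicates 1 and 2 these were the highest correlations with any DMSO library, while verteporfin replicate 3 correlated more with DMSO replicate 1 (0.138). Leaving out single libraries gave 0 calls in each set, cytosolic medians of 0.063 to 0.62, mitochondrial medians of -0.28 to -0.10 and set differences of 0.40 to 0.69; without both libraries numbered 2 the difference was 0.49, and with coding transcripts 0.38. With coding transcripts the verteporfin and DMSO groups of the set difference overlapped. The mitochondrial median was -0.27 with a minimum mean of 5 FPKM, under which WARS2 and PARS2 were not tested.

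Sign turns left these values. WARS2 was at -0.063 after quantile normalization. With library weights RARS1 was at -0.16 and AARS2 at 0.015. Leaving out single libraries RARS1 ran from -0.56 to 0.43, AARS2 from -0.25 to 0.18, FARS2 from -0.12 to 0.31, WARS2 from -0.20 to 0.30, FARSB from -0.65 to 0.50, NARS1 from -0.27 to 0.45, EPRS1 from -0.072 to 0.62 and RARS2 from -0.20 to 0.73. Without both libraries numbered 2 NARS1 was at -0.058, AARS2 at 0.073, RARS2 at -0.011 and WARS2 at -0.11. With coding transcripts only GARS1 was at -0.057, QARS1 at -0.33, RARS1 at -0.52 and YARS1 at -0.37. With the most abundant transcript HARS1 was at 0.036, MARS1 at -0.017, QARS1 at -0.041, RARS1 at -0.52, YARS1 at -0.37 and VARS2 at 0.72. The cause was not tested. With FPKM alone no counting error can be given.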
